A study of Mus musculus with 4 samples.

Results

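The 39 genes described here encode the Wnt ligands, their Frizzled receptors and co-receptors, the R-spondins and the R-spondin receptors of the mouse. They were taken by name from a fixed list: 19 Wnt ligands, 10 Frizzled receptors, the 4 co-receptors Lrp5, Lrp6, Ror2 and Ryk, the R-spondin receptors Lgr4, Lgr5 and Lgr6, and the R-spondins Rspo2, Rspo3 and Rspo4. All 39 were found among 21887 protein-coding genes of the RefSeq annotation of GRCm38.p6. The readout is chromatin accessibility, that is, how many reads of an ATAC-seq library fall on a gene, and not RNA or protein. A gene's level is the number of reads over its span with 2 kb on either side, given per 1000000 reads of the nuclei that the authors listed (RPM).

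Wnt ligands are secreted lipid-modified proteins that bind Frizzled receptors on nearby cells. With the co-receptors Lrp5 and Lrp6 this stabilises beta-catenin, which acts in the nucleus with TCF and LEF factors. Ror2 and Ryk are receptors best known for responses that do not run through beta-catenin. R-spondins bind the LGR receptors and slow the removal of Frizzled proteins by the ubiquitin ligases Znrf3 and Rnf43, which raises the response to Wnt. In the mammary gland, Wnt signalling is needed for the embryonic placode and is known for its role in the basal layer, where Lgr5 and the Wnt target Axin2 have been used to mark cells with regenerative capacity.

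The libraries are single-nucleus ATAC-seq of mammary glands from WT (wild-type) CD1 mice, an outbred stock, and the sorted cells had been frozen before nuclei were made. The fetal group was taken at embryonic day 18 and the adult group at 8 weeks, with 2 libraries labelled as biological replicates in each, and all cells of both groups had been sorted as EpCAM+ and Lin-. How many animals were pooled per library and the sex of the fetuses were not given in the sources used here, so p-values cover the spread between these libraries. Stage and any batch that follows it cannot be told apart.

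Fetal replicates held 882 and 1695 listed nuclei with 6028168 and 15801908 reads, and adult replicates held 2465 and 2804 nuclei with 13588107 and 19304830 reads. No barcode was shared between any libraries. The summed level of 6 luminal markers, among them Epcam, lay between 354 and 501 RPM in the 4 libraries, and none of the 6 was at 0. The authors placed the nuclei in classes numbered 1 to 14 without names, and names here rest on listed markers. Adult classes 1 and 8 raised all 8 basal markers, and fetal class 4 raised 5 of 8, so these are called basal-like. Classes 3, 7 and 9 each raised 5 of 6 luminal progenitor markers, and class 9 is the fetal one of the 3. Classes 2 and 11, which raised 7 and 5 of 7 mature luminal markers, held 1002 and 1074 nuclei in the adult replicates but no more than 5 per class in a fetal one. Class 6 raised all 7 stromal markers and held 23, 33, 82 and 75 nuclei in fetal replicates 1 and 2 and adult replicates 1 and 2. Fetal class 5 raised 4 of 6 luminal progenitor markers and fetal class 12 raised 3 of 8 basal markers, and both are called by number. Leaving class 5 unnamed was a choice, since its luminal progenitor markers summed to 378 RPM, near the 384 of class 9. Class 5 was joined to class 9 only in alternative runs. Because the classes were formed on these same nuclei, differences between classes are descriptions without a test, while the stages were compared over libraries of all listed nuclei. The stage comparisons within a lineage also compare classes formed on these nuclei. Class 4 held at most 3 nuclei in an adult library and class 9 at most 10, and the adult classes of the same lineages held at most 7 each in a fetal one. Stage and class cannot be told apart there, and p-values from these comparisons, and from the difference between the lineages, take no account of how the classes were formed.

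RefSeq promoter sequences, from 250 bases before to 50 bases after a gene's start, matched 26 of the 39 members. The sequences below are the 4 that overlap a promoter region whose accessibility differed between the stages, and they show which letters those regions hold. Capitals mark matches on either strand to the TCF/LEF letters CTTTGA, the AP-1 letters TGANTCA or the SOX letters ACAATG, none of which contains another. Of 32544 distinct promoter sequences of this length, 16.0% hold the first, 7.79% the second and 12.4% the last. The Ror2 sequence holds 1 AP-1 match and the Lgr6 sequence 1 SOX match, and the other two hold none of the 3 motifs in this window. All coordinates are on GRCm38.
Lgr6, chr1:135105227-135105526, minus strand: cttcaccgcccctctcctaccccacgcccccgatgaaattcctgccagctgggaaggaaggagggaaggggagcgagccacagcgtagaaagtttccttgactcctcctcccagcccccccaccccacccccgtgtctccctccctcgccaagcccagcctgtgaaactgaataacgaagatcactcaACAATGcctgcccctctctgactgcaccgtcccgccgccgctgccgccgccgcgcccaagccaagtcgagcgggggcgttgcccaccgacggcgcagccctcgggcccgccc
Ror2, chr13:53286075-53286374, minus strand: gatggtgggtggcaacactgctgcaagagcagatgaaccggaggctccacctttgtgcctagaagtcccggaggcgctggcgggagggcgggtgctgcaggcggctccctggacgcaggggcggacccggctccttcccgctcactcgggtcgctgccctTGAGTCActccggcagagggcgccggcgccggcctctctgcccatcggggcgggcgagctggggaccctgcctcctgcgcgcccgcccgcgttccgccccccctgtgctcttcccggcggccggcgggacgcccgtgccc
Wnt3, chr11:103773925-103774224, plus strand: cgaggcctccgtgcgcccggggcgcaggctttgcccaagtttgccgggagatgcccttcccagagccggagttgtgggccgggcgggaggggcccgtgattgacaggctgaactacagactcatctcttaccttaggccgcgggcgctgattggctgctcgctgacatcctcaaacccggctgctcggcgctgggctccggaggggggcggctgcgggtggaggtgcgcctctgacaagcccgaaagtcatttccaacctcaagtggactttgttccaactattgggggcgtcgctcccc
Fzd4, chr7:89404116-89404415, plus strand: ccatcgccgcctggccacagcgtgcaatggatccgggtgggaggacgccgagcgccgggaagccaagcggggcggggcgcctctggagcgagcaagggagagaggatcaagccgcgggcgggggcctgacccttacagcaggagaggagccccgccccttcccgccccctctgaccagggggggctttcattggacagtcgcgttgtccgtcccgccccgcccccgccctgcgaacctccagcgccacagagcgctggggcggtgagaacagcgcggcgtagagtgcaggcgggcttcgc

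Per length, the 6 most accessible members were Frizzled genes, while the other 4 Frizzled genes were spread over the list. Levels over all listed nuclei ran from 0.151 RPM per kb at Rspo2, an R-spondin gene spanning 151 kb, to 8.11 at Fzd7, a Frizzled gene spanning 4.81 kb. The 6 were Fzd7, Fzd8, Fzd5, Fzd1, Fzd4 and Fzd2, at 4.81 to 8.11 RPM per kb. These 6 genes span 3.35 to 7.19 kb. Fzd10 and Fzd9, which span 2.99 and 2.11 kb, had 2.31 and 2.27 RPM per kb, below the ligand genes Wnt4, Wnt10a and Wnt1 at 2.65, 2.48 and 2.40, and Fzd6 and Fzd3 had 1.01 and 0.434. The median over the 39 members was 1.06, against 0.668 over all genes. Windows of 9 members overlapped that of another gene, so their levels can include reads of the neighbour. They were Wnt2b (St7l), Wnt5b (Fbxl14 and Gm52875), Wnt8b (Sec31b), Fzd4 (Tmem135), Fzd9 (Baz1b), Lgr4 (Ccdc34), Lgr5 (A930009A15Rik), Wnt3 (Wnt9b and Nsf) and Wnt9b (Wnt3). Wnt3 and Wnt9b are neighbours on chromosome 11 whose windows overlap each other, so their values share reads and are not independent.

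Among the adult classes, 10 of the 14 members that stood highest in 1 lineage were highest in basal-like nuclei: 5 ligands, the 3 LGR genes, Ror2 and Rspo3. A gene was counted as highest when both libraries of a lineage lay above every library of the other lineages compared and its mean was at least 1.5 times the next mean. Of the 39 members 14 met this rule among the 3 adult lineages (basal-like, luminal progenitor-like, mature luminal-like), against 19.0% of all genes. The basal-like nuclei were highest for 10 members (7.26% of all genes), the luminal progenitor-like nuclei for 2 (3.71%) and the mature luminal-like nuclei for 2 (8.05%). With a factor of 2 in place of 1.5 the count of 14 became 5.

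**Figure D1:**
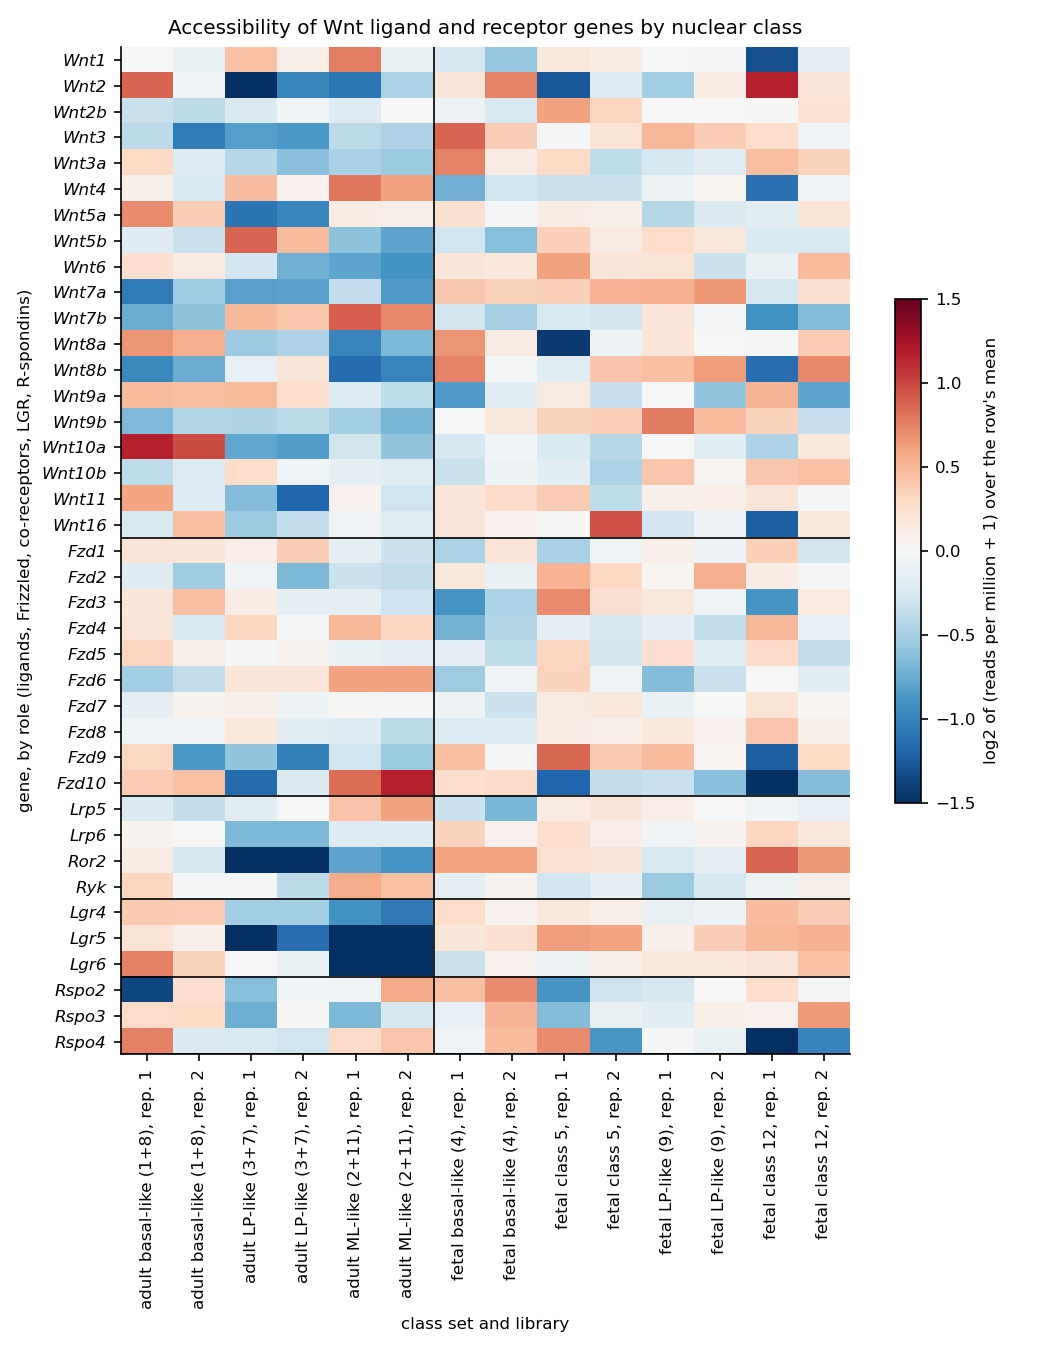
Accessibility of each of the 39 genes (rows, by role) in each class set and library (columns). Colour is the log2 of RPM plus 1 over the row's mean, with the scale limited to 1.5 in either direction; LP is luminal progenitor and ML mature luminal. Lgr4, Lgr5 and Lgr6 were low in adult ML-like nuclei, with 29.6 and 26.5 RPM for Lgr6, while Wnt10a is high in the adult basal-like columns at 100 and 88.1.

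Of the ligands, Wnt10a had the widest gap. Wnt10a, a ligand of the beta-catenin branch that is also known from hair follicles and teeth, stood at 100 and 88.1 RPM in adult basal-like replicates 1 and 2. The luminal progenitor-like nuclei had 25.4 and 24.3, and the mature luminal-like nuclei 36.4 and 29.0. The basal-like mean was thus 2.88 times the next mean, with no overlap. Wnt6, the neighbour of Wnt10a on chromosome 1, was also highest in basal-like nuclei, at 59.4 and 54.1 against at most 40.7 elsewhere. Wnt3a, Wnt2 and Wnt8a were highest there too, with means of 1.54, 2.51 and 2.31 times the next, but at low levels of no more than 28.5 RPM. The stromal-like class 6 had 3.25 to 11.0 times as much Wnt2 signal as all other nuclei of the same library. Of the basal-like classes, class 8 raised 2 of the 7 stromal markers, Col3a1 and Dcn, and class 1 raised 1, Col1a2. The summed stromal marker level was 133 in both basal-like replicates, against 90.8 to 99.3 RPM in the luminal sets, with no marker at 0. The part of stromal signal in the Wnt2 result was not tested.

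Wnt5b, a ligand mainly known for beta-catenin-independent responses, was highest in luminal progenitor-like nuclei instead. Its levels were 430 and 327 RPM in adult luminal progenitor-like nuclei, 206 and 187 in basal-like nuclei and 153 and 136 in mature luminal-like nuclei. The luminal progenitor-like mean was 1.93 times the next. Its relative Wnt5a was lowest in those same nuclei, at 21.9 and 23.9, against 79.2 and 62.1 in basal-like and 51.9 and 50.8 in mature luminal-like nuclei. Wnt5a therefore did not meet the rule for basal-like nuclei, with a mean 1.38 times the next. Wnt8b was also highest in luminal progenitor-like nuclei, at 7.46 and 9.53 against at most 4.51 elsewhere. Wnt4 and Wnt7b, ligands linked to hormone-responsive and luminal cells, had their highest means in mature luminal-like nuclei, at 1.35 and 1.29 times the next, below the factor required.

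Of the 10 Frizzled genes 1 met the rule, a share not far from the 19.0% of all genes. It was Fzd10, with 24.9 and 31.7 RPM in mature luminal-like, 17.96 and 18.8 in basal-like and 5.54 and 11.5 in luminal progenitor-like nuclei. The ratio of the highest to the next mean was 1.00 for Fzd7, 1.01 for Fzd2, 1.04 for Fzd1 and Fzd8, and at most 1.34 for the other genes, the last being Fzd6. Fzd6 still differed in every step, with 50.8 and 51.0 in mature luminal-like, 37.7 and 38.1 in luminal progenitor-like and 22.9 and 25.5 in basal-like nuclei. Fzd7, a receptor studied in mammary stem cells, ranged from 64.4 to 75.6 over the 6 adult values, so its lineages overlapped.

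The co-receptors split. Lrp5 was highest in mature luminal-like nuclei, at 191 and 218 RPM against at most 144 elsewhere. Its partner Lrp6 reached 134 and 130 in basal-like and 113 and 112 in mature luminal-like nuclei, and only 80.5 and 80.7 in luminal progenitor-like nuclei. Ror2, a receptor tyrosine kinase that binds Wnt5a, stood at 130 and 101 in basal-like, 69.5 and 64.9 in mature luminal-like and 23.7 and 32.3 in luminal progenitor-like nuclei. The genes of this ligand and this receptor thus had the same order of adult lineages, an order that Lrp6 also had.

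All 3 R-spondin receptors met the rule in basal-like nuclei. Lgr5 stood at 129 and 118 RPM there, at 32.0 and 50.4 in luminal progenitor-like and at 26.3 and 25.8 in mature luminal-like nuclei, a mean 3.01 times the next. Lgr4 stood at 263 and 260, 140 and 138, and 106 and 94.7 in the same order. Lgr6 stood at 181 and 137, 106 and 98.8, and 29.6 and 26.5. Mature luminal-like nuclei were the lowest of the 3 lineages for each of them in both libraries. Of the R-spondins, Rspo3 was highest in basal-like nuclei, at 31.6 and 32.0 against at most 26.1 elsewhere. Rspo2 and Rspo4 met no rule, and their basal-like replicates lay far apart, at 8.05 and 26.8 for Rspo2 and 24.1 and 11.8 for Rspo4. The mean of Rspo2 was highest in mature luminal-like nuclei, at 1.54 times the next, but its libraries overlapped those of another lineage.

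**Figure D2:**
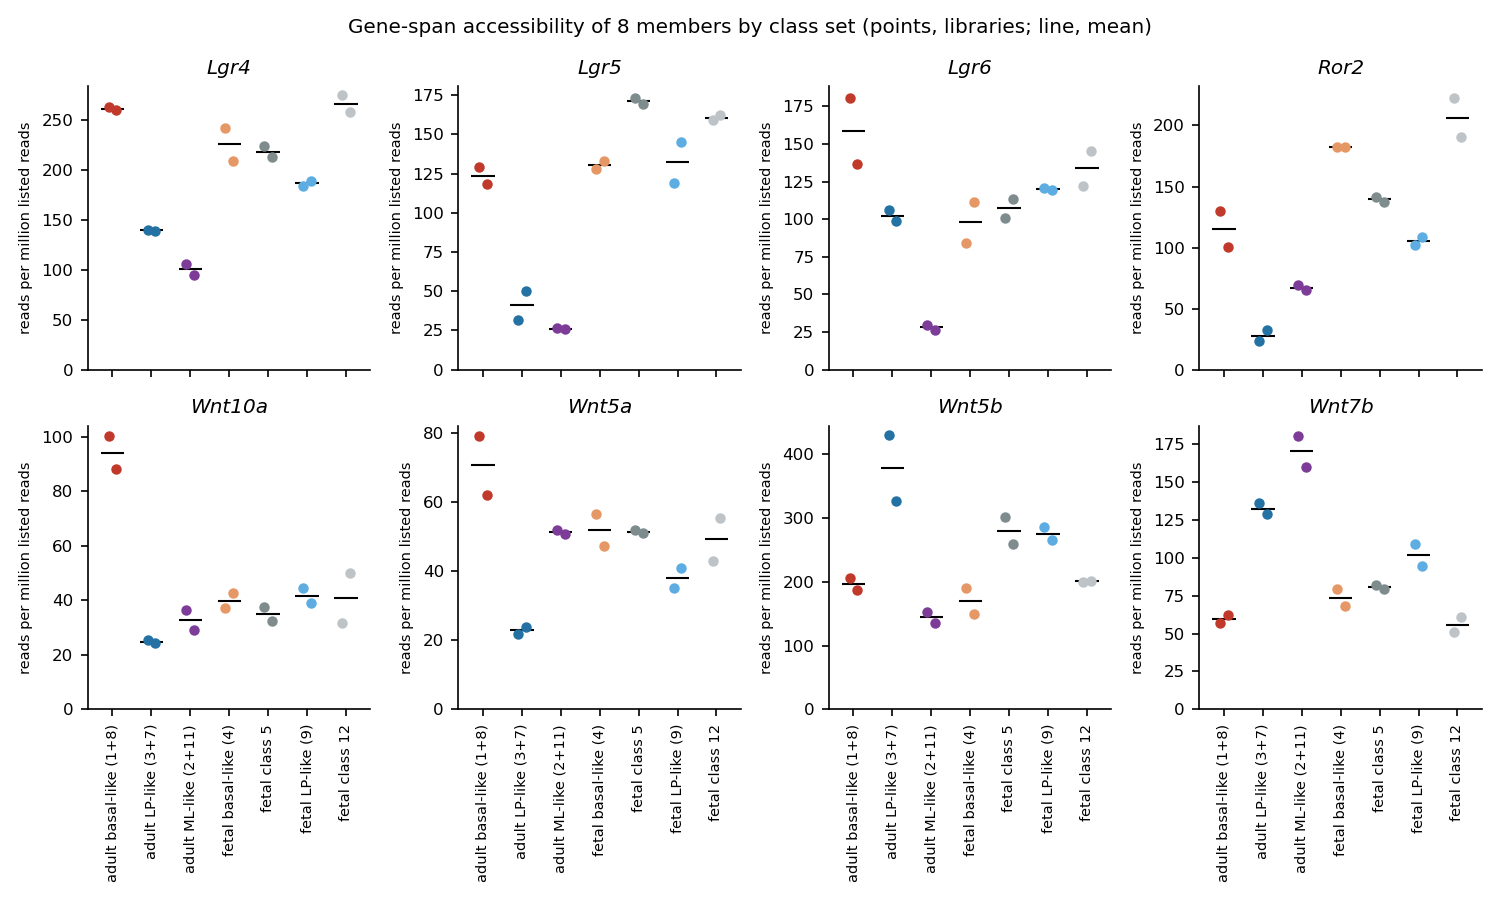
RPM (vertical axis, from 0) of 8 members in 3 adult and 4 fetal class sets; points are libraries and lines their means; LP is luminal progenitor and ML mature luminal. Wnt10a at 88.1 and 100 in adult basal-like nuclei lies above all its other values, and Lgr5 in fetal LP-like nuclei lies near its adult basal-like level.

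Few genes of any kind met this rule among the fetal classes, which are 4 sets of 629493 to 6657005 reads per library, against 3 adult sets of 1615142 to 8181983. Of the 39 members only Fzd10 met the rule among classes 4, 5, 9 and 12, against 3.71% of all genes, with 16.5 and 16.7 RPM in class 4 and at most 10.6 elsewhere. The members' count is near that share, which for all genes was also lower than the 19.0% of the adult sets. Among all genes the shares were 1.38% for class 4, 1.08% for class 5, 0.481% for class 9 and 0.775% for class 12. Lgr5 stood between 119 and 173 RPM in all 8 fetal values, and its lowest mean was in class 4. Wnt10a stood between 31.8 and 50.03 in the 8 fetal values, all below its adult basal-like level. Ror2 kept an order, with 222 and 190 in class 12, 182 in both libraries of class 4, 141 and 138 in class 5 and 102 and 109 in class 9, but the class 12 mean was less than 1.5 times the next. Fetal markers were less separated as well: the 8 basal markers summed to 427 and 516 in class 4 and to 356 and 330 in class 9. Adult basal-like nuclei had 1062 and 940, and adult luminal progenitor-like nuclei 261 and 274. Class 12 had 480 and 524, above class 4 in both libraries, and no run added class 12 to class 4.

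Class 6, the stromal-like nuclei, was set against all other nuclei of the same library for the 24 members with at least 10 reads per library on average. Wnt2, a ligand known from mammary stroma, was higher there at 41.4, 62.7, 85.2 and 83.0 RPM in fetal replicates 1 and 2 and adult replicates 1 and 2, against 12.8, 16.7, 7.75 and 10.2 in the other nuclei. It was the only one of the 24 raised at least 1.5 times in every library, from 3.25 to 11.0 times (4.73% of all genes), and Wnt5b and Wnt7b were the only 2 lowered as much in every library (2.26%). These counts were not read further, because the filter used the reads of class 6 itself and so removed members that were low there. Among the 15 members it removed, Wnt4 was at 0.568, 0.623, 0.259 and 0.281 times its level in the other nuclei and Wnt5a at 0.640, 0.618, 0.475 and 0.229 times. Class 6 is small, and its level of Wnt2 rests on between 6 and 48 reads per library.

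Between the stages, over all listed nuclei, the receptors of R-spondins, Ror2 and several ligands were more accessible in the fetal libraries, while Wnt4, Wnt7b and several Frizzled genes were less so. In edgeR's quasi-likelihood test over 18808 genes with Benjamini-Hochberg adjustment, 12 members were higher and 6 lower in the fetal libraries, 18 of 39 in all, against 22.4% of all genes (11.0% higher and 11.4% lower). The fetal and adult replicates did not overlap for 28 members, against 58.4% of all genes. The median log2 fold change, fetal over adult, was 0.20 over the members and 0.00 over all genes. More reads per nucleus and more nuclei of a class cannot be told apart in these sums.

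Among ligands 5 of 19 were higher and 2 lower. Wnt7a, a ligand of several epithelia and of the female reproductive tract, had 34.8 and 37.4 RPM in the fetal and 16.7 and 15.4 in the adult replicates, a log2 fold change of 1.17 ± 0.15 (SE, adjusted p = 7.16e-05). Wnt3 and Wnt9b, which share reads, rose by 0.97 ± 0.18 and 0.90 ± 0.15 (adjusted p = 0.00104 and 0.000459). Wnt6 and Wnt8b were higher by 0.64 ± 0.13 and 0.96 ± 0.26 (adjusted p = 0.0023 and 0.0138). On the lower side, Wnt7b had 93.7 and 80.3 in the fetal and 144 and 123 in the adult replicates, a log2 fold change of -0.63 ± 0.12 (adjusted p = 0.00111). Wnt4, which progesterone induces in the adult gland, had 48.1 and 54.4 against 89.3 and 72.2, a change of -0.65 ± 0.13 (adjusted p = 0.00236). For these 7 ligands the fetal and adult replicates did not overlap. Wnt10a, so different between adult lineages, had 39.1 and 39.5 against 39.7 and 41.2, with an adjusted p of 0.826.

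Of the Frizzled receptors, Fzd2 and Fzd9 were higher in the fetal libraries and Fzd4, Fzd6 and Fzd10 lower. Fzd10 had 10.6 and 9.94 RPM in the fetal and 17.1 and 22.3 in the adult replicates, a log2 fold change of -0.97 ± 0.20 (adjusted p = 0.00279). Fzd4, also the receptor of norrin, had 50.1 and 43.9 against 71.7 and 61.2, and changed by -0.52 ± 0.13 (adjusted p = 0.00782). Fzd6, known for planar cell polarity in skin, had 26.4 and 29.7 against 41.6 and 41.4, and changed by -0.56 ± 0.14 (adjusted p = 0.00895). Fzd2 and Fzd9 changed by 0.57 ± 0.14 and 0.85 ± 0.20 (adjusted p = 0.00704 and 0.00683). The other 5, Fzd1, Fzd3, Fzd5, Fzd7 and Fzd8, lay between -0.06 and 0.20 on the log2 scale.

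Ror2 was higher in the fetal libraries, at 137 and 140 against 61.4 and 66.8 RPM, a log2 fold change of 1.10 ± 0.11 (adjusted p = 1.25e-05). Lrp6 was higher by 0.37 ± 0.11 (adjusted p = 0.0226) and Ryk lower, at -0.41 ± 0.14 (adjusted p = 0.0487). All 3 LGR genes were higher over all listed nuclei, though Lgr6 was not called higher within either lineage, as given below. Lgr5 had 133 and 146 in the fetal and 42.6 and 53.7 in the adult replicates, a log2 fold change of 1.52 ± 0.14 (adjusted p = 3.96e-06), the largest of the 39. Lgr4 had 208 and 201 against 137 and 146, and Lgr6 had 109 and 118 against 77.9 and 72.0, changes of 0.51 ± 0.10 and 0.59 ± 0.11 (adjusted p = 0.00186 and 0.00166). None of the 3 R-spondins passed edgeR's test, none had an unadjusted p under 0.05, and DESeq2 called none.

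All 6 lower members had their highest adult mean in the mature luminal-like nuclei, which are nearly absent from the fetal libraries. Among all genes lower in the fetal libraries 63.4% had their highest adult mean there. The 7 mature luminal markers summed to 448 and 487 RPM in the fetal and 706 and 700.1 in the adult libraries, and their part in the result was not tested. Of the 12 higher members 7 had their highest adult mean in basal-like nuclei, against 51.6% of all higher genes. The LGR genes among them had their lowest adult levels in mature luminal-like nuclei, as given above. The part of those nuclei in the rises was not tested. The calls of Wnt8b, Fzd2, Fzd4 and Lgr6 were lost without fetal replicate 2, and those of Fzd6 and Fzd9 without fetal replicate 1. Lrp6 and Ryk lost their calls without adult replicate 1 and without either fetal replicate, and Ryk also with DESeq2, without the flanks and without TMM factors. The other 10 calls held under every alternative run.

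**Figure D3:**
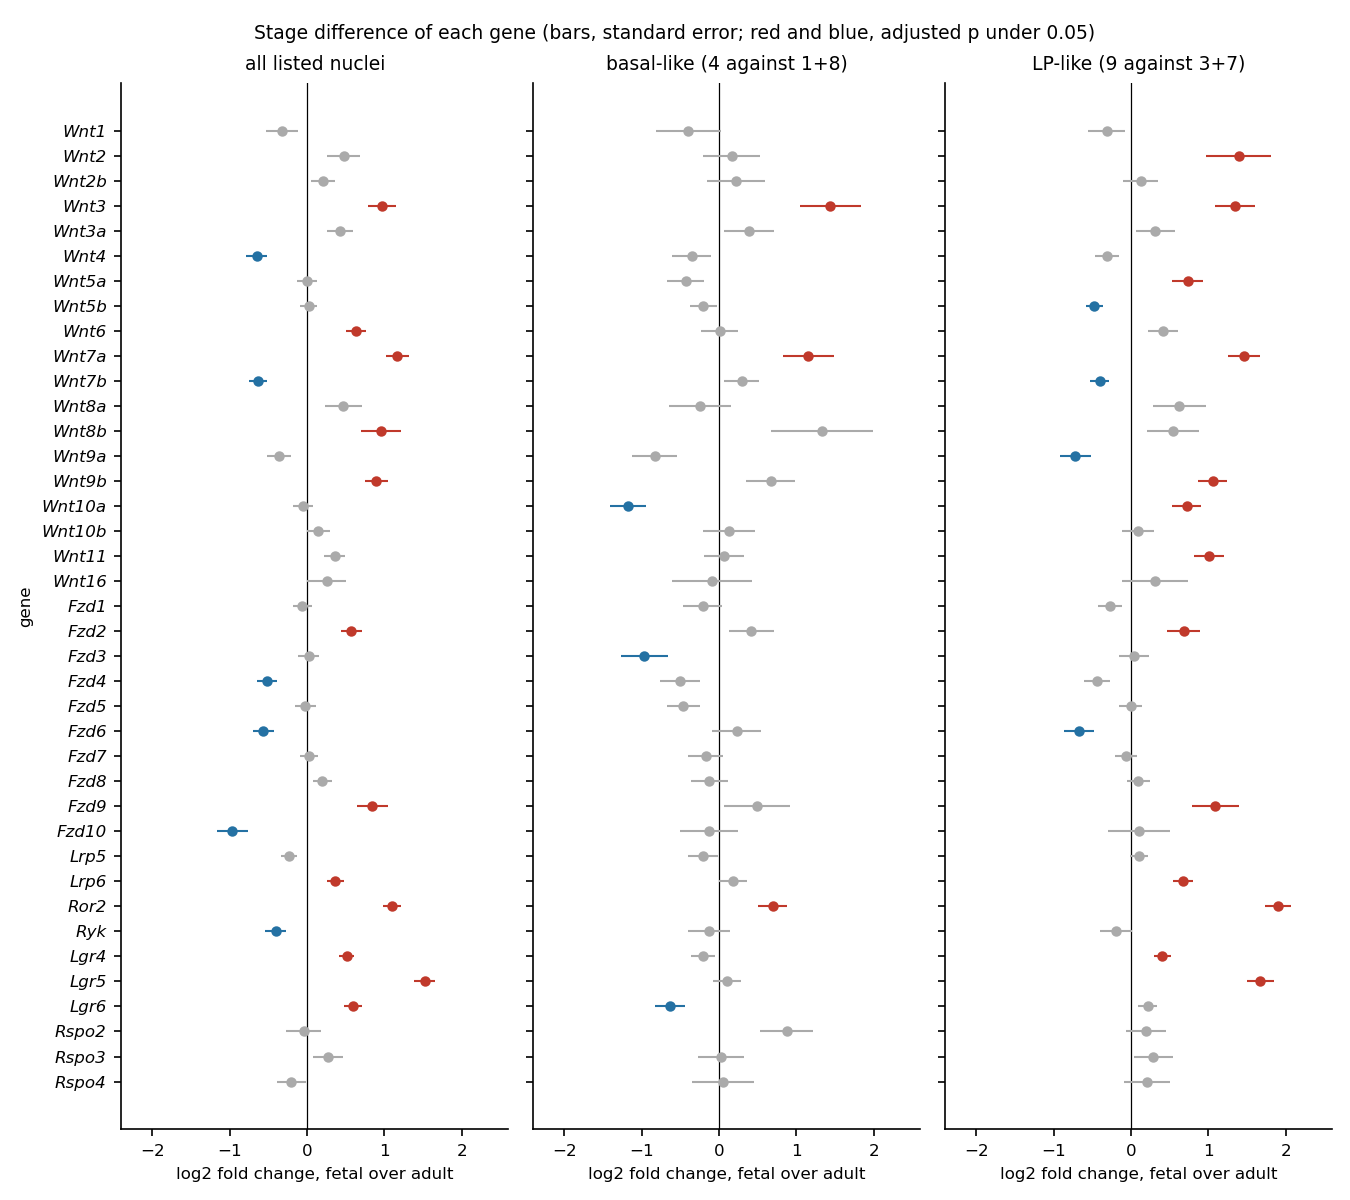
Log2 fold change, fetal over adult (horizontal axis), of each of the 39 genes over all listed nuclei, in basal-like nuclei and in luminal progenitor (LP) like nuclei. Points are edgeR estimates, bars their standard errors, and red and blue mark genes higher and lower in fetal nuclei at an adjusted p under 0.05: 18, 6 and 17 genes in the 3 panels.

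Within basal-like nuclei, fetal class 4 was set against adult classes 1 and 8, and the R-spondin receptors no longer stood higher in the fetus. In edgeR's test 3 members were higher and 3 lower, 6 of 39, against 6.25% of all genes (3.00% higher and 3.25% lower). Wnt10a had 37.1 and 42.8 RPM in fetal and 100 and 88.1 in adult basal-like nuclei, a log2 fold change of -1.18 ± 0.23 (adjusted p = 0.000831). It was the only one of the 6 calls that held under every alternative run. Of the 8 basal markers 7 were lower in the same comparison, with a median of -1.17, and 3 of the 6 luminal progenitor markers were higher, with a median over the 6 of 0.86. The part of these markers in the result was not tested. Fzd3 and Lgr6 were also lower, at -0.96 ± 0.30 and -0.63 ± 0.19 (adjusted p = 0.0429 and 0.0417), and the Fzd3 call was lost without the flanks. Wnt3, Wnt7a and Ror2 were higher, at 1.44 ± 0.39, 1.15 ± 0.33 and 0.69 ± 0.18 (adjusted p = 0.0177, 0.0247 and 0.014). Lgr5 had 128 and 133 in the fetal and 129 and 118 in the adult replicates, which overlapped, with an adjusted p of 0.824. The count of 6 became 3 without adult replicate 1 and 2 with DESeq2, and without fetal replicate 1 only Wnt10a of all 39 was called. Wnt7a, Ror2 and Fzd3 lost their calls without fetal replicate 2, Wnt7a, Fzd3 and Lgr6 without adult replicate 1, and Wnt3, Ror2 and Fzd3 without adult replicate 2.

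Within luminal progenitor-like nuclei, fetal class 9 was set against adult classes 3 and 7, and 13 members were higher and 4 lower, 17 of 39, against 15.7% of all genes (7.88% higher and 7.80% lower). Ror2 had 102 and 109 RPM in fetal and 23.7 and 32.3 in adult nuclei, a log2 fold change of 1.90 ± 0.17 (adjusted p = 1.6e-07). Lgr5 had 119 and 145 against 32.0 and 50.4, a change of 1.67 ± 0.18 (adjusted p = 1.45e-06). For both genes every fetal value lay more than 2 times above every adult value. In the same comparison 4 of 8 basal markers were higher and 1 lower (median 0.39), and 3 of 6 luminal progenitor markers were lower and 1 higher (median -0.44), and their part in the result was not tested. Lgr4 was higher by 0.41 ± 0.11 (adjusted p = 0.017), while Lgr6 at 121 and 120 against 106 and 98.8 did not pass (adjusted p = 0.256).

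Ligands made up 10 of these 17 calls. Wnt7a, Wnt3, Wnt9b and Wnt11 rose by 1.46 ± 0.21, 1.35 ± 0.26, 1.06 ± 0.19 and 1.01 ± 0.20 on the log2 scale. Wnt5a had 35.3 and 41.0 in fetal and 21.9 and 23.9 in adult luminal progenitor-like nuclei, a change of 0.73 ± 0.20 (adjusted p = 0.0134). Wnt10a had 44.4 and 39.1 against 25.4 and 24.3, a change of 0.72 ± 0.19 (adjusted p = 0.0105), the reverse of its direction in basal-like nuclei. Wnt2 was higher as well, at 1.39 ± 0.42 (adjusted p = 0.0255), on 28, 104, 14 and 35 reads. Its change ran from 0.92 to 2.14 over the alternatives, the highest without adult replicate 2. Wnt5b was lower, with 286 and 265 in fetal against 430 and 327 in adult nuclei, a change of -0.47 ± 0.11 (adjusted p = 0.005). Wnt9a and Wnt7b were lower, with changes of -0.72 ± 0.20 and -0.40 ± 0.12. Among receptors, Fzd9, Fzd2 and Lrp6 were higher by 1.09 ± 0.30, 0.68 ± 0.21 and 0.67 ± 0.13, and Fzd6 was lower, at -0.67 ± 0.20. The calls of Wnt3, Wnt7a, Wnt9b, Wnt11, Lrp6, Ror2 and Lgr5 held under every alternative run. Those of Wnt7b and Wnt9a were lost without the flanks, and those of Wnt2, Wnt5a, Wnt7b, Wnt9a, Fzd2, Fzd6 and Fzd9 with DESeq2. Wnt10a lost its call without fetal replicate 1 and with DESeq2, and Wnt5b without adult replicate 1. Wnt2, Wnt5a, Wnt7b, Wnt9a and Lgr4 lost theirs without fetal replicate 2 or adult replicate 1, Fzd2 without either replicate 2, and Fzd6 and Fzd9 without fetal replicate 1 or adult replicate 2. With DESeq2 the count of 17 became 9, and without fetal replicate 2 it became 11.

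Whether the stage difference itself differed between the lineages was tested in 1 edgeR model over the 8 sums of both lineages with each library as a block. This test was added after the opposite directions of Wnt10a had been seen. It called 8 of 39 members, against 6.19% of all genes (3.60% lower and 2.59% higher in basal-like nuclei), and in 7 of them the stage difference was lower, that is, less fetal over adult, in basal-like nuclei. All 3 LGR genes were among the 7. The difference of log2 fold changes, basal-like minus luminal progenitor-like, was -1.91 ± 0.29 for Wnt10a and -1.59 ± 0.21 for Lgr5. It was -1.21 ± 0.21 for Ror2, -1.18 ± 0.30 for Wnt5a, -0.98 ± 0.30 for Wnt11, -0.85 ± 0.20 for Lgr6 and -0.63 ± 0.17 for Lgr4. Wnt7b alone went the other way, at 0.69 ± 0.22 with an adjusted p of 0.0391. No Frizzled gene passed edgeR's test here, though 2 had an unadjusted p under 0.05, and DESeq2 called none of the 10.

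The basal markers moved the same way. All 8 of them, Krt5 and Krt14 included, had a lower stage difference in basal-like nuclei, with a median of -1.49 against -0.01 over all genes, and 3 of the 6 luminal progenitor markers had a higher one. The part of this weaker separation of the fetal classes in the results on Wnt genes was not tested. The calls of Wnt10a, Ror2 and Lgr5 held under every alternative run. Those of Wnt5a, Wnt7b, Wnt11, Lgr4 and Lgr6 were lost with DESeq2, and those of Wnt7b, Wnt11 and Lgr4 without the library block. Wnt7b and Wnt11 lost theirs without the flanks, and Wnt7b without TMM factors and without the filter on low counts. The count of 8 became 4 without adult replicate 1 or without fetal replicate 2, 5 without fetal replicate 1 and 3 with DESeq2. Wnt7b and Wnt11 lost their calls without any 1 library, Wnt5a without adult replicate 1 or fetal replicate 2, Lgr6 without adult replicate 1 or fetal replicate 1, and Lgr4 without either replicate 2.

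**Figure D4:**
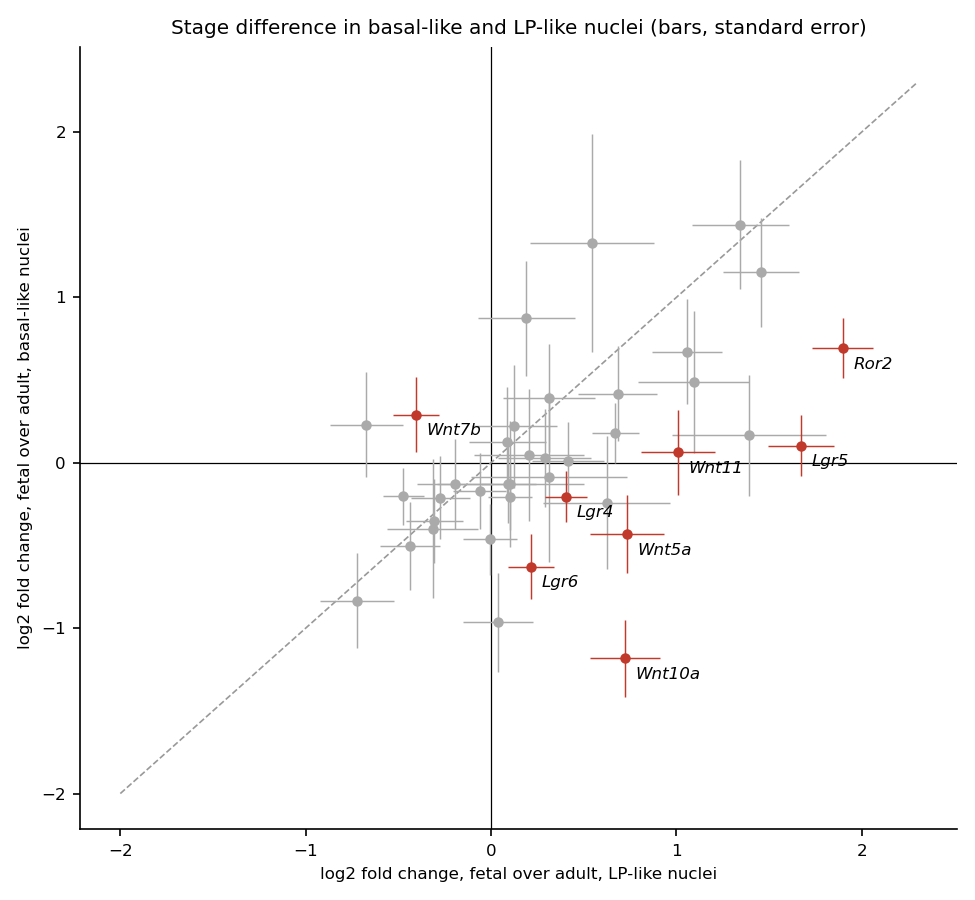
Log2 fold change, fetal over adult, in luminal progenitor (LP) like nuclei (horizontal axis) and in basal-like nuclei (vertical axis) for the 39 genes, with standard errors; the dashed line marks equal values. The 8 red genes differed between the lineages at an adjusted p under 0.05, and 7 of them lie below the line.

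Promoter regions gave the stage differences at a narrower place. The authors' list of promoter regions, each 1 kb wide, held 26 regions that take in a start or an end of a member gene, at 25 members. In edgeR's test 6 were higher and 3 lower in the fetal libraries, 9 of 26, against 21.5% of all promoter regions (10.5% higher and 11.0% lower). The Lgr5 region, chr10:115586911-115587910, had 30.0 and 23.5 RPM in the fetal and 10.4 and 12.3 in the adult replicates, a log2 fold change of 1.19 ± 0.16 (adjusted p = 5.62e-08). The regions of Wnt3, Ror2, Lgr6 and Fzd2 were higher by 1.20 ± 0.35, 0.79 ± 0.23, 0.60 ± 0.20 and 0.46 ± 0.15. The region of Wnt7b, chr15:85581284-85582283, was lower, with 9.12 and 8.92 in the fetal and 18.03 and 15.6 in the adult replicates, a change of -0.89 ± 0.19 (adjusted p = 0.00027). Those of Fzd6 and Fzd4 were lower, at -0.56 ± 0.16 and -0.39 ± 0.12. A region at the far end of Fzd9 rose by 2.76 ± 0.64 on 19, 39, 6 and 7 reads, while the one at its start did not pass (adjusted p = 0.295). The promoter region of Lgr4 had 49.6 and 42.7 against 51.7 and 46.8, so the stages overlapped there although the gene span differed. The calls at Lgr5, Wnt7b and Fzd9 held wherever the region was tested. Without fetal replicate 1 those of Lgr6, Fzd2, Wnt3, Fzd6 and Fzd4 were lost, without fetal replicate 2 those of Fzd2, Ror2 and Fzd4, without adult replicate 1 those of Ror2, Fzd6 and Fzd4, and without adult replicate 2 those of Lgr6, Fzd2 and Wnt3. The Lgr6 call was also lost with DESeq2 and with reads counted by their midpoint, and those of Fzd2 and Fzd4 without TMM factors.

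Distal regions were taken inside the members' counting windows, or between genes within 50 kb where the member was the nearest gene. Of 437 such regions 403 had enough reads, and 76 were higher and 62 lower in the fetal libraries, 34.2%, close to the 34.9% of all distal regions (15.9% higher and 19.0% lower). The count of 138 became 83 with DESeq2 and 51 with a mean of at least 50 reads. Called regions were spread unevenly over the genes, but this was not tested, and regions of 1 gene are not independent. Regions inside a counting window hold reads that the gene span also counts. Their counts therefore do not stand apart from the calls of the genes. At Lgr5 12 of 22 tested regions were higher and none lower. Ror2 had 14 higher and 5 lower of 37, Lrp6 9 and 1 of 31, and Lgr4 7 and 2 of 22. In the other direction, Wnt7b had 10 lower and none higher of 32, and Lrp5 9 lower and 1 higher of 26. Wnt4, Fzd4 and Fzd10 each had 5 lower and none higher, of 10, 9 and 13. Both directions were found at Wnt5b, with 3 higher and 3 lower of 25, and at Wnt11, with 2 and 3 of 15.

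The 5 largest rises and 5 largest falls were taken among called regions whose mean reached 50 reads and whose stages did not overlap. The largest rise was inside Lrp6 at chr6:134537117-134538116, with 15.4 and 12.7 RPM in the fetal and 0.883 and 1.14 in the adult replicates, a log2 fold change of 3.75 ± 0.32. At the promoter region of Lrp6 itself the adjusted p was 0.472. Regions inside Lgr5, at chr10:115556523-115557522 and chr10:115579121-115580120, rose by 2.09 ± 0.37 and 1.85 ± 0.35. Others lay inside Ror2 at chr13:53217582-53218581 and inside Lgr4 at chr2:109966003-109967002, with changes of 1.99 ± 0.29 and 1.90 ± 0.23. All 5 had adjusted p-values of 0.000102 or less. In adult basal-like replicates 1 and 2 the Ror2 region had 10.5 and 10.5 RPM, against 11.3 and 12.9 in fetal class 4. The Lgr4 region had 22.3 and 10.3 against 18.5 and 20.9, and the second Lgr5 region 9.91 and 6.01 against 4.12 and 5.47. The first Lgr5 region had 5.57 and 9.76 against 10.3 and 13.8, and the Lrp6 region 2.48 and 2.75 against 19.6 and 13.2. The part of the classes in these rises was not tested.

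The largest fall lay 18772 bases from Fzd4 at chr7:89428882-89429881, with 2 and 4 reads in the fetal and 100 and 144 in the adult replicates, a log2 fold change of -4.69 ± 0.50. A region 5268 bases from Rspo2, at chr15:43176862-43177861, had 4 and 5 against 130 and 197 reads and changed by -4.52 ± 0.43. So this region differed where the span of Rspo2 did not. Regions inside Lrp5, at chr19:3622004-3623003 and chr19:3624707-3625706, changed by -3.54 ± 0.51 and -3.31 ± 0.36, and the first had no read in fetal replicate 1. The last of the 5 lay inside Wnt7b at chr15:85546309-85547308, with 0.332 and 1.65 against 11.6 and 8.96 RPM and a change of -3.05 ± 0.38. Adult mature luminal-like nuclei, nearly absent from the fetal libraries, had 16.0 and 15.8 RPM near Fzd4 and 20.4 and 21.0 near Rspo2. They had 12.4 and 13.3, and 16.2 and 18.1, at the Lrp5 regions and 15.0 and 14.4 inside Wnt7b. Other adult sets had at most 0.852, 0.426 and 1.36 at the first 3 regions. Luminal progenitor-like nuclei had 5.75 and 7.39 at the second Lrp5 region and 12.4 and 8.17 inside Wnt7b. The part of mature luminal-like nuclei in these falls was not tested. The calls of these 10 regions held under every alternative run, but some sizes rested on 1 library. Without fetal replicate 2 the change inside Wnt7b was -4.81 and that near Rspo2 -3.79, and the first Lrp5 region had no fetal read left, so no fold is given. Without adult replicate 2 the change at the first Lgr5 region was 2.96.

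**Figure D5:**
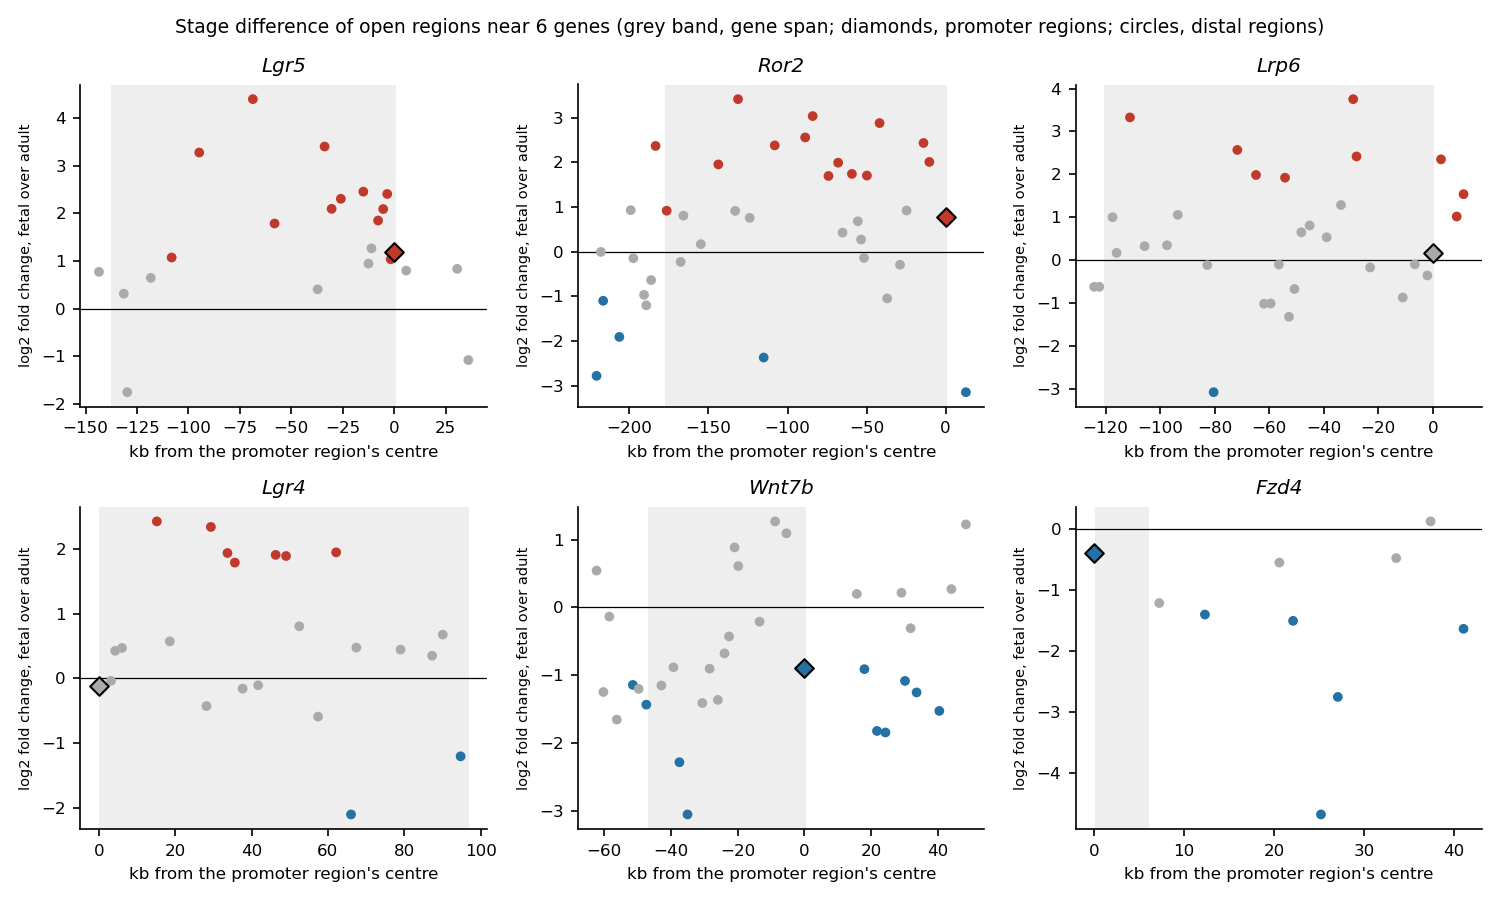
Log2 fold change, fetal over adult (vertical axis), of tested promoter regions (diamonds) and distal regions (circles) of 6 genes against the distance in kb from the centre of the gene's promoter region (horizontal axis, along the chromosome); the grey band is the gene span. Red and blue mark regions higher and lower in the fetal libraries at an adjusted p under 0.05; at Lgr5 12 distal regions are red and none blue, and at Wnt7b 10 are blue and none red.

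Of 189 distal regions near members with enough reads in the adult sets, 47 (24.9%) were highest in basal-like nuclei, against 15.1% of all distal regions. They included 6 of 10 regions at Lgr4, 5 of 9 at Fzd7 and 4 of 6 at Wnt10a. The regions of Ror2 and Wnt7b were split, with 5 and 4 of 13 at Ror2 and 5 and 6 of 20 at Wnt7b highest in basal-like and mature luminal-like nuclei, and 1 and 4 in luminal progenitor-like nuclei. Regions of 1 gene are not independent, and the difference between the shares was not tested. For luminal progenitor-like nuclei the shares were 9.52% and 13.0%, and for mature luminal-like nuclei 23.8% and 26.5%.

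The authors' co-accessibility scores tie a promoter region to regions that open in the same nuclei, and they were computed over these same nuclei of both stages, so they are given as a description. A score of at least 0.25 was reached by 24 of 2262 scored pairs that start at a member's promoter region, from 7 members, and by 0.514% of all scored pairs. The latter are not limited to pairs that start at a promoter region, so the 2 shares are not like for like. Wnt7b had 12 of the 24, 11 of them with distal regions, of which 10 were lower in the fetal libraries, as were 19.0% of all distal regions. Its highest score, 0.456, was with chr15:85507782-85508781, a region that changed by -3.61 on the log2 scale. The region inside Wnt7b named above had a score of 0.322. Lgr5 had 4 pairs, all with distal regions higher in the fetal libraries, as were 15.9% of all distal regions. The highest, 0.421, was with chr10:115738894-115739893, which lies upstream of the gene beyond its counting window and changed by 2.80. The promoter regions of Wnt7b and Lgr5 were themselves called lower and higher. The direction of regions that open in the same nuclei is therefore not independent of them, and nothing is drawn from these shares. Wnt10a had 3 pairs and Lgr6 2, and Fzd1, Ror2 and Rspo3 had 1 each.

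Other genes of the pathway, a list of 43, held more genes called higher than lower in the fetal libraries. In edgeR's test over all listed nuclei 17 were higher and 1 lower, 41.9% of the list against 22.4% of all genes, with a median log2 fold change of 0.33 against 0.00 over all genes. Of 13 secreted antagonists 4 were higher, among them Sfrp1, which binds Wnt proteins, at 1.18 ± 0.14, and Sostdc1, which is known for limiting placode growth, at 1.27 ± 0.18. Both ligases that remove Frizzled proteins were higher, Znrf3 by 0.50 ± 0.11 and Rnf43 by 0.49 ± 0.11. Of 8 planar polarity genes 5 were higher, led by Vangl1 at 0.83 ± 0.11. The gene of beta-catenin, Ctnnb1, was higher by 0.58 ± 0.12, and the Dishevelled gene Dvl1 was the lower gene, at -0.57 ± 0.15. Within basal-like nuclei 2 were higher and 4 lower of 42 tested, against 6.25% of all genes called, with the feedback gene Nkd1 at -1.05 ± 0.22. Within luminal progenitor-like nuclei 11 were higher and 1 lower of 43, against 15.7% of all genes called, with Celsr1 at 1.05 ± 0.12. The alternative runs were not examined for the genes of this list, so how firmly their calls hold is not known. Cell type markers moved in the same comparisons. Over all nuclei 4 of 7 mature luminal markers were lower and 1 higher (median -0.81). Basal and luminal progenitor markers moved within the lineages as given above, and the part of the markers was not tested.

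Of the 4 TCF and LEF genes, Lef1 was higher in all fetal nuclei together and in both lineages, by 0.93 ± 0.14, 0.87 ± 0.24 and 1.23 ± 0.18. Tcf7l1 was higher in all nuclei and in luminal progenitor-like nuclei, by 0.84 ± 0.10 and 0.73 ± 0.11, and Tcf7l2 in all nuclei, by 0.56 ± 0.09. Tcf7 was lower in fetal basal-like nuclei, at -0.91 ± 0.29 (edgeR adjusted p = 0.0458), and was not called in the other fits. These genes belong to the same list, so their calls were not examined under the alternative runs either. The authors' Lef1 motif score, a relative value centred near 0, averaged 0.25 to 0.50 in the basal-like classes 1 and 8 and 0.27 and 0.29 in class 4. It was -0.41 to -0.17 in classes 3 and 7 and -0.38 to -0.27 in the mature luminal-like classes 2 and 11. Fetal class 9 had 0.14 and 0.26, class 5 had 0.26 and 0.57 and class 12 had 0.33 and 0.35. The SD over the nuclei of a class and library was 0.892 to 1.10, wider than these differences. The Tcf7l1 and Tcf7l2 scores had the same signs in these classes, from 0.13 to 0.53 in classes 1, 8, 4, 5, 9 and 12. They lay from -0.44 to -0.12 in classes 2, 3, 7 and 11. The Tcf7 score did not, with -0.03 and -0.05 in class 1 and 0.00 in both libraries of class 9.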

How the data were processed

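The data were 4 single-nucleus ATAC-seq libraries. Per the submitters' processing notes, reads were handled with Bowtie2, MACS2 and bedtools on build mm10, without stated roles or versions. Each deposited library lists read positions by barcode and the barcodes kept as nuclei; read counts per gene or region were made here from those deposited positions. Reads were used without a shift, and any read overlapping a window by 1 base was counted. The authors also deposited promoter and distal regions, a class number for each nucleus, motif scores from chromVAR and Cicero scores of co-accessibility.

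Reads of listed barcodes were summed per library, or per library and class, so that nuclei were never replicates. Gene windows were RefSeq spans with 2000 bases on either side. Stages were compared with edgeR 4.0.16 (quasi-likelihood, TMM factors on listed reads) in R 4.3.3 over all genes or regions whose mean reached 10 reads, and calls had a Benjamini-Hochberg adjusted p below 0.05. The SE is the absolute log2 fold change over the square root of the F statistic. DESeq2 1.42.0 was an alternative. Regions near members were called by stage over all listed nuclei only. Classes 10, 13 and 14 were in no set. Sets of classes needed 20 nuclei per library for a level, and a marker counted as raised at a log2 level, with 2 RPM added, 0.5 above the mean of the other classes. Other steps ran in Python 3.11.15 (numpy 2.4.6, pandas 2.3.3, matplotlib 3.10.9). The fits were also run on simulated counts whose spread was set by hand, with changes only in features expected to average at least 50 reads. Of 100 genes changed 2-fold, 97 were recovered over all nuclei, 81 in basal-like and 96 in luminal progenitor-like nuclei. Of 100 regions, 93 were recovered among promoter and 68 among distal regions. Recovery at the spread of the real libraries, or at fewer reads, is not known.

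The members, gene lists, markers and tests were chosen with earlier results of these data known. Values were given for members called in a stage test or highest in a class set, and for the 5 largest rises and 5 largest falls among called distal regions without overlap and with a mean of at least 50 reads. The deposited Cicero gene score table names no sample in its columns and was not used here.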

Additional observations from a re-analysis of the deposited data

Results flagged for a closer look

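For 8 members the stage difference in gene-span accessibility differed between the basal-like and the luminal progenitor-like nuclei by the test of the difference itself, in edgeR with each library as a block. The values below are the log2 fold change, fetal over adult, in basal-like nuclei minus that in luminal progenitor-like nuclei. They were -1.91 for Wnt10a, -1.59 for Lgr5, -1.21 for Ror2, -1.18 for Wnt5a, -0.98 for Wnt11, -0.85 for Lgr6, -0.63 for Lgr4 and 0.69 for Wnt7b. All 8 basal markers differed in the direction of the first 7 of these genes, with a median of -1.49, and their part in the result was not tested. The test was added after the opposite directions of Wnt10a had been seen. Only Wnt10a, Lgr5 and Ror2 kept their calls under every alternative run. Wnt7b and Wnt11 lost theirs with DESeq2, without the flanks and without the library block.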

How the results depend on the processing

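Alternatives were run for the counts and for the called members and named regions, 10 of the 138 called distal regions among them, and none of these changed direction. Counts of members called moved by more than 1.5 times in these cases, and the cause was not tested. With DESeq2, 2 members in place of 6 were called in basal-like nuclei, 9 in place of 17 in luminal progenitor-like nuclei, 83 distal regions in place of 138, and 3 in place of 8 for the difference between lineages, which gave 5 without the library block. With a mean of at least 50 reads, 3 members were called in basal-like nuclei and 51 distal regions, where fewer features are tested. Leaving out each library in turn gave 12 to 21 members over all nuclei, 1 to 4 in basal-like nuclei, 11 to 15 in luminal progenitor-like nuclei, 4 to 6 for the difference between lineages, 6 to 7 promoter regions and 98 to 143 distal regions. With a factor of 2, 5 members in place of 14 were highest in an adult class set and 0 in place of 1 in a fetal one. The labels do not pair the replicate numbers, and deviations of replicate 1 from the stage means correlated at 0.29 between the stages over genes (2 pairs only). With a replicate block, 22 members were called over all nuclei, 8 in basal-like nuclei, 18 in luminal progenitor-like nuclei, 10 promoter regions and 128 distal regions. Without class 6, 19 members, 10 promoter regions and 135 distal regions were called. Low depth limits the class values: fetal class 4 of replicate 1 held 132 nuclei with 971201 reads.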
